A study of Mus musculus with 3 samples.

Results

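A set of 6 of the 32285 genes in each count matrix was followed through 3 single-cell libraries of mouse lung lymphocytes: the granzymes Gzma, Gzmb and Gzmc, the pore-forming protein gene Prf1, the granule membrane protein gene Nkg7, and Ifng, which encodes the cytokine interferon gamma. They were chosen by symbol, and each matched 1 row of every matrix. Lymphocytes came from digested lungs of GFI1B-GFP reporter mice, in which green fluorescent protein (GFP) reports the gene of the repressor GFI1B, and all sorts were gated as live, CD45+, lineage negative, CD90.2+ and IL-7R+, a gate used for innate lymphoid cells (ILC). The 3 groups are 1 library each. The pool holds IL-18R+ cells of both a CD103+ GFP- gate and a CD103- GFP+ gate. The second library carries the label IL-18R- CD103- GFP-. The last, called the ST2+ library, was sorted as ST2+ among IL-18R- cells. Cells of the pool are not assigned to either of its sorts, so no value can be tied to GFP, and Gfi1b itself had 0 UMIs in all 3 libraries. Since each group is a single library, differences have no replicate check and were not tested, and all intervals are 95% intervals that cover counting error only.

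Cytotoxic lymphocytes store granzymes, which are serine proteases, and perforin in secretory granules. On contact with a target cell the granules are released, perforin opens the target's membrane and the granzymes enter and cleave proteins that trigger its death. Natural killer (NK) cells, some group 1 ILC (ILC1) and cytotoxic T cells are known for this program, and the same cells are known sources of interferon gamma, which activates macrophages. Group 2 ILC (ILC2), which carry the ST2 receptor, and type 17 lymphocytes are known for other cytokines.

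The kept cells numbered 1655, 1872 and 1611 in the pool, the second and the ST2+ library, with medians of 4930, 4768 and 4568 UMIs (unique molecular identifiers, each standing for 1 captured RNA molecule). Levels are given in CPM, a gene's UMIs scaled to counts per 1000000 UMIs of the library's kept cells. Among kept cells 1 barcode was shared by the pool and the second library and 0 by the other pairs. The second library went against its label: Il18r1, which encodes IL-18R, was at 663.3 CPM (86.7% of cells) in the pool, 591.8 (86.2%) in that library and 15.7 (5.90%) in the ST2+ library, so it is called the negative-labelled library throughout, and the plots give its sort label in full. Itgae, which encodes CD103, was at 99.8 CPM in the pool, which holds CD103+ and CD103- cells. It was at 3.44 in the negative-labelled library, which follows that library's CD103- label, and at 2.79 in the ST2+ library, whose label does not give CD103. Il1rl1, which encodes ST2, was at 867.8 CPM in the ST2+ library, against 4.91 in the pool. Cells were gated from marker genes that exclude the 6 members: a T cell needed 2 UMIs of Cd3d, Cd3e and Cd3g together, and a CD3-negative cell had 0. Although the sort was lineage negative, T cells made up 74.9% of the pool and 88.6% of the negative-labelled library, mostly gamma delta T cells, and held 69.8% and 88.5% of all UMIs. The 15.9% gated as T cells in the ST2+ library were mostly cells with Cd3g alone: of its 223 T cells not resolved by receptor chain, 220 had Cd3g, 29 had Cd3e and 208 had Il1rl1.

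On GRCm38 (GENCODE M21) these 3 granzyme genes lie at 2 loci. Gzma is at chr13:113093825-113100981 on the minus strand, while Gzmc (chr14:56231441-56234656) and Gzmb (chr14:56258838-56262260) are neighbours, 24.2 kb apart on the minus strand at one end of a cluster of 7 granzyme genes that spans 144.6 kb. Prf1 (chr10:61297833-61304680) and Ifng (chr10:118441046-118445892) are both on the plus strand of chromosome 10, and Nkg7 is at chr7:43437073-43438249, plus strand. In the 3' sequence that these libraries read, the members can be told apart: of the 60-base and 90-base fragments in the last 500 bases of their coding transcripts, 0 were found in a transcript of another gene. The 250 bases before the RefSeq start of 4 members are shown because 3 granzymes with different cell distributions, 2 of them neighbours, and Ifng are contrasted below. Sequences are from RefSeq (GRCm38.p6), read 5′ to 3′ on the strand of the gene, with capitals marking a RUNX motif (TGTGGT or its reverse complement ACCACA) or an AP-1 motif (TGANTCA).
Gzma, chr13:113100982-113101231, minus strand: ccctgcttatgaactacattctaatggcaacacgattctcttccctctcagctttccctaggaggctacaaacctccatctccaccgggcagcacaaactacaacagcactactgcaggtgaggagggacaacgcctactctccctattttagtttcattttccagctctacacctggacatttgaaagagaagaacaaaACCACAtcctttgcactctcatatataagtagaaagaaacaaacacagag
Gzmb, chr14:56262335-56262584, minus strand: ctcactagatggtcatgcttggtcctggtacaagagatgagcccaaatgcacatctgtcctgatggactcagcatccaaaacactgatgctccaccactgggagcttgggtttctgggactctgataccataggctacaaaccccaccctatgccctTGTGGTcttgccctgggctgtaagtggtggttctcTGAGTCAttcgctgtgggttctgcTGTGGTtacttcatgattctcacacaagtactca
Gzmc, chr14:56234658-56234907, minus strand: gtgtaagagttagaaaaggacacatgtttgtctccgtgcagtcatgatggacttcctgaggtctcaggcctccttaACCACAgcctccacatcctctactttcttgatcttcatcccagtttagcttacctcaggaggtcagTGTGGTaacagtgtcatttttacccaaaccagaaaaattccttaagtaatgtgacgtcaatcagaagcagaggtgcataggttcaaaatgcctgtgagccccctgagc
Ifng, chr10:118440796-118441045, plus strand: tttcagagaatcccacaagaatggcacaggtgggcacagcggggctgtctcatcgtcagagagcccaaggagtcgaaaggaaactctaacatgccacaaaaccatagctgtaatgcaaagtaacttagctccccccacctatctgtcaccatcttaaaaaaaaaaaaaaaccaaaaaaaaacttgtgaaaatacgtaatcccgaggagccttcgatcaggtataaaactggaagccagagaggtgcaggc
The windows of Gzmb and Gzmc each held 2 RUNX motifs and that of Gzma held 1. The window of Gzmb also held an AP-1 motif, from 58 to 52 bases before the start. The T-box core GGTGTG was searched as well and had 0 matches in these 4 windows. Of the member windows not shown, that of Nkg7 held 1 T-box core, from 13 to 8 bases before the start, and that of Prf1 held 0. Each of these held 1 RUNX motif. Of 32851 RefSeq promoter windows of the same length, 14.1% held the RUNX motif, 6.75% the AP-1 motif and 16.3% the T-box core, counting both strands. TGTGGT and GGTGTG can overlap. No motif of the 3 was in the Ifng window. RefSeq and GENCODE place the start of Gzmb at different bases, so its window is relative to the RefSeq start only.

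Gzma and Gzmc were the members with the steepest drop from the pool to the negative-labelled library, and Ifng ran the other way. Gzma, a tryptase of the granules, was counted at 389 UMIs (43.4 CPM, interval 39.2 to 47.9) in the pool, 19 (1.98 CPM, 1.19 to 3.09) in the negative-labelled library and 0 in the ST2+ library. Gzmc, a chymase-like granzyme, was counted at 328 UMIs (36.6 CPM, 32.7 to 40.7), 38 (3.96 CPM, 2.80 to 5.43) and 0. Gzmb, the granzyme that cleaves after aspartate and activates caspases, was counted at 206 (23.0 CPM, 19.9 to 26.3), 117 (12.2 CPM, 10.1 to 14.6) and 2 UMIs. The order of the 3 libraries was therefore the same for each granzyme, with no overlap of their counting intervals. Prf1 was counted at 99 UMIs (11.04 CPM, 8.97 to 13.4) in the pool and 140 (14.6 CPM, 12.3 to 17.2) in the negative-labelled library, intervals that overlap, and at 6 in the ST2+ library. Nkg7 had 1273 UMIs (141.9 CPM, 134.2 to 149.9), 2289 (238.5 CPM, 228.8 to 248.4) and 52 (6.59 CPM, 4.92 to 8.64). Ifng had 94 UMIs (10.48 CPM, 8.47 to 12.8), 279 (29.1 CPM, 25.8 to 32.7) and 9 (1.14 CPM, 0.521 to 2.17). Nkg7 and Ifng were thus highest in the negative-labelled library, and all 6 members were lowest in the ST2+ library.

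**Figure D1:**
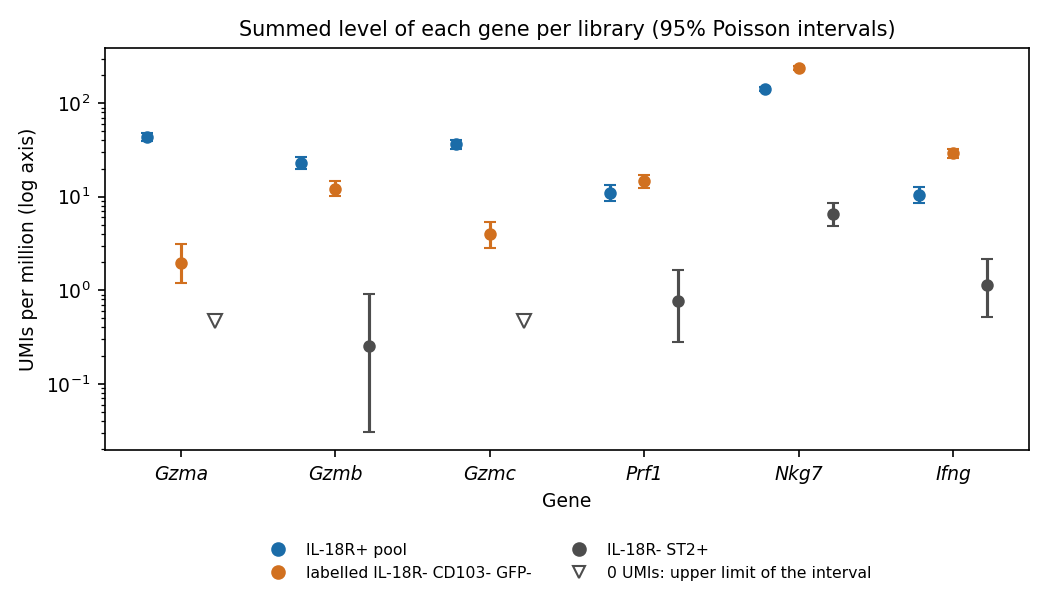
Summed level of each gene in each library, in CPM on a log axis, with 95% Poisson intervals as bars and open triangles at the upper limit where 0 UMIs were counted. The granzymes sit highest in the pool, Nkg7 and Ifng in the negative-labelled library, and every gene is lowest in the ST2+ library.

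A gene was measured in a pair of libraries when either reached 20 CPM, and was called higher at a ratio of at least 2, with sums below 3 UMIs raised to that floor. Between the pool and the negative-labelled library, 5 of the 6 members were measured: 2 were higher in the pool (2.55% of the 5812 genes measured) and 1 was higher in the other library (0.791%). The ratio of the pool to the negative-labelled library was 21.9 for Gzma (interval 13.8 to 36.8). For Gzmc it was 9.24 (6.59 to 13.3), a ratio that was 4.79 without the 3 cells holding most Gzmc in each library. Ifng was 2.77-fold higher in the negative-labelled library (2.19 to 3.54). For Gzmb the ratio of the pool to the negative-labelled library was 1.88 (1.49 to 2.38), and Nkg7 was 1.68-fold higher in the negative-labelled library (1.57 to 1.80), both short of the size rule, and Prf1 stayed under the minimum level. The Prf1 ratio of 0.757 turned to 1.08 when each cell was given the same weight, so no direction is read from it. The Gzma ratio was 42.7 with that weighting. A summed level cannot tell more positive cells from more RNA per cell, and the cells themselves are described next.

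Against the ST2+ library, all 4 members measured were higher in the pool (12.3% of 5930 genes, against 4.33% called higher in the ST2+ library). Gzma was at least 114.1-fold and Gzmc at least 96.2-fold higher, each against the floor of 3 UMIs in that library. With the counting error of both libraries the lower limits were 92.3 and 77.8. The ratio was 90.6 for Gzmb from its 2 UMIs in the ST2+ library (24.8 to 753.2), or 60.4 with these raised to the floor, and for Nkg7 it was 21.5 (16.3 to 29.0). Both members measured between the negative-labelled library and the ST2+ library were higher in the former (9.57% of 5736 genes, against 5.40% in the other direction). There Nkg7 was 36.2-fold (27.5 to 48.6) and Ifng 25.5-fold higher (13.2 to 56.3). Without the 3 cells holding most of a gene in each library, Gzma was at least 54.5-fold and Gzmc at least 30.2-fold higher in the pool, and Ifng, then at 0 UMIs in the ST2+ library, at least 64.6-fold higher in the negative-labelled library. These 2 comparisons share the ST2+ library. Of all genes called between the pool and that library, 74.01% were higher in the pool, and 55.1% with TMM or 52.2% with median-of-ratios scaling. For the negative-labelled library the share was 63.9%, and 53.5% or 51.4% with those scalings. The members called kept their direction and stayed past the size rule under both.

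Few cells carried the granzyme UMIs of the pool. The 389 Gzma UMIs lay in 11 of 1655 cells (0.665%), and the top 3 cells held 52.2% of them. The 328 Gzmc UMIs lay in 35 cells (2.11%), with 68.6% in the top 3 cells and 133 UMIs in 1 cell. Gzmb lay in 77 cells (4.65%) with 15.5% in the top 3. In the negative-labelled library, 9 cells (0.481%) had Gzma, 22 (1.18%) had Gzmc and 58 (3.098%) had Gzmb, and no cell held more than 11 UMIs of a granzyme. Prf1 was in 65 cells of the pool (3.93%) and 114 of the negative-labelled library (6.09%), and in 53 and 94 of them as a single UMI. Nkg7 was in 278 (16.8%), 572 (30.6%) and 34 (2.11%) cells of the 3 libraries, and Ifng in 39 (2.36%), 145 (7.75%) and 2 (0.124%). After thinning each cell to 2000 UMIs, the share of cells with Nkg7 was 11.6%, 22.0% and 0.939%, and with Ifng 1.59%, 4.26% and 0.0626%, so the order of the libraries was the same at equal depth. The thinned shares in the pool and the negative-labelled library were 0.489% and 0.270% for Gzma, 0.917% and 0.486% for Gzmc, 2.32% and 1.51% for Gzmb, and 1.71% and 2.70% for Prf1.

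Shares of cells are set beside cells that should lack these genes. In the pool, 127 cells gated as B cells, myeloid cells or stroma (median 3378 UMIs) held 0 UMIs of Gzma, Gzmb, Gzmc, Prf1 and Ifng. This allows a share of up to 2.36% (3 cells of 127, exact upper limit 2.86%), and 2 of them (1.57%) held Nkg7. The shares of T cells of the pool with Gzma (0.242%), Gzmc (1.53%) and Ifng (2.02%) lie below 2.36%, so the 127 cells do not tell them from background. The negative-labelled library had only 27 such cells (median 4128 UMIs), of which 1 (3.704%) held Gzmb, 1 held Ifng, 2 (7.41%) held Nkg7 and 0 held Gzma, Gzmc or Prf1. For the genes at 0 this allows a share of up to 11.1% (3 cells of 27, exact upper limit 12.8%). The shares of T cells of that library with Gzma (0.542%), Gzmc (1.15%) and Prf1 (6.63%) lie below this limit, so the 27 cells do not tell them from background. In that library Gzmb was in 54 of 1659 T cells (3.25%), not above the share in those 27 cells. Its interval of 0.0937 to 19.0% shows that 27 cells are too few to tell so low a share from background. Of the 58 Gzmb cells of that library, 38 held 1 UMI, while the highest T cell held 11.

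Gzma in the pool was held by a handful of CD3-negative cells with NK and ILC1 markers. The gate for these took CD3-negative cells with at least 2 UMIs of Ncr1, Klrb1c, Tbx21, Eomes, Klre1, Klra8, Klra4 and Klra3 together and of no other ILC list, and held 16 cells of the pool (0.967%). Of the 389 Gzma UMIs, 384 (98.7%) were in 8 of these 16 cells, 7 of which held 37 to 78 UMIs and the eighth 1. The other 5 UMIs were in 3 gamma delta T cells with at most 2 each, and 2 of these cells, with 4 UMIs, were of the type 1 gate, which took T cells with 2 UMIs of Ly6c2, Cxcr3, Tbx21 and Eomes. The negative-labelled library also had 16 cells in the NK and ILC1 gate, with a median of 5034 UMIs against 4520 in the pool, and 0 of them had Gzma, which allows a share of up to 18.8% (3 cells of 16; exact upper limit 20.6%). All 19 of its Gzma UMIs were in 9 T cells of the type 1 gate. The share of type 1 T cells with Gzma was 2 of 67 in the pool (2.99%, 0.364 to 10.4) and 9 of 508 in the negative-labelled library (1.77%, 0.813 to 3.34), with intervals that overlap. The libraries therefore differed in the Gzma of the NK and ILC1 gate, and not detectably in that of type 1 T cells. The 8 genes of the NK and ILC1 list were all detected in both libraries, at 49.2 CPM over all cells of the pool and 70.7 over all cells of the negative-labelled library, and 3 of 8 were detected in the ST2+ library, at 1.01. Those sums include T cells, which held 77 of 441 list UMIs (17.5%) in the pool and 543 of 679 (79.97%) in the negative-labelled library. The NK and ILC1 gate itself held 179 list UMIs in the pool and 59 in the negative-labelled library.

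The 8 Gzma cells of the pool held other genes of the cytotoxic program. All 8 held Nkg7, 7 held Prf1 at 1 to 10 UMIs, 5 held Gzmb and 0 held Gzmc. All 8 held the chemokine gene Ccl5, at 16614 CPM of their own RNA against 356.2 in the 227 CD3-negative cells without a granzyme. The NK receptor genes Klra8 and Klre1, which belong to the gate's own list, were in 7 of 8 each, against 0 and 5 of those 227. Itgam, which encodes CD11b and was looked at after its values were seen, was in 6 of 8 and in 0 of 227. Their mRNA for the proteins of the sort was sparse: Il7r was in 2 of 8 (25%, 3.19 to 65.1) and Thy1, which encodes CD90, in 1 of 8 (12.5%, 0.316 to 52.7), where Il7r was in 221 of 227 (97.4%) and Thy1 in 139 of 227 (61.2%). Their median depth was 3764 UMIs, against 6223 in those 227 cells, and the part of depth in these shares was not tested.

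Gzmc in the pool was held by other CD3-negative cells. Of 328 UMIs, 293 (89.3%) were in 15 CD3-negative cells and 34 (10.4%) in 19 T cells. None of the 15 held Gzma. With only 8 Gzma cells, and Gzmc in 5.81% of CD3-negative cells without Gzma, this shows no separation. Of the 15, 6 held 133, 58, 34, 28, 16 and 13 UMIs, and the others 3 or fewer. By gate, 213 UMIs (64.9%) were in 9 cells that met several ILC lists, of which 209 were in 5 cells whose lists included that of NK and ILC1, 62 (18.9%) were in 3 cells of the ILC progenitor gate, and 17 (5.18%) in 2 cells of the NK and ILC1 gate. Without the top 3 cells the CD3-negative share was 66.0% and the T cell share 33.0%. In the negative-labelled library, 34 of 38 UMIs (89.5%) were in T cells, close to their share of all its UMIs, and 4 (10.53%) in 3 CD3-negative cells. Per gate, the Gzmc level in the pool was 149.3 CPM in CD3-negative cells (132.7 to 167.4) and 5.43 in T cells (3.76 to 7.59). The corresponding levels of the negative-labelled library were 4.505 CPM (1.23 to 11.5) and 4.001 (2.77 to 5.59), with intervals that overlap. Among the 15 cells of the pool Ncr1, an activating receptor gene, was in 7, Klrd1 in 8, Itgae in 7, Xcl1 in 7 and Kit in 10. Il7r was in all 15, and also in nearly all CD3-negative cells without a granzyme. Ncr1 and Kit belong to the marker lists of the gates. Median depth was 7359 UMIs in the 15 cells, against 6223 in CD3-negative cells without a granzyme. Shares of the other genes in those cells are not given, so the counts do not mark the 15 cells as distinct. Gzmb was in 2 of the 15 and Prf1 in 2, and Itgam in 0. Klrd1 and Itgae were looked at after their values were seen. These cells are not named as a cell type, since most met the marker lists of several.

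**Figure D2:**
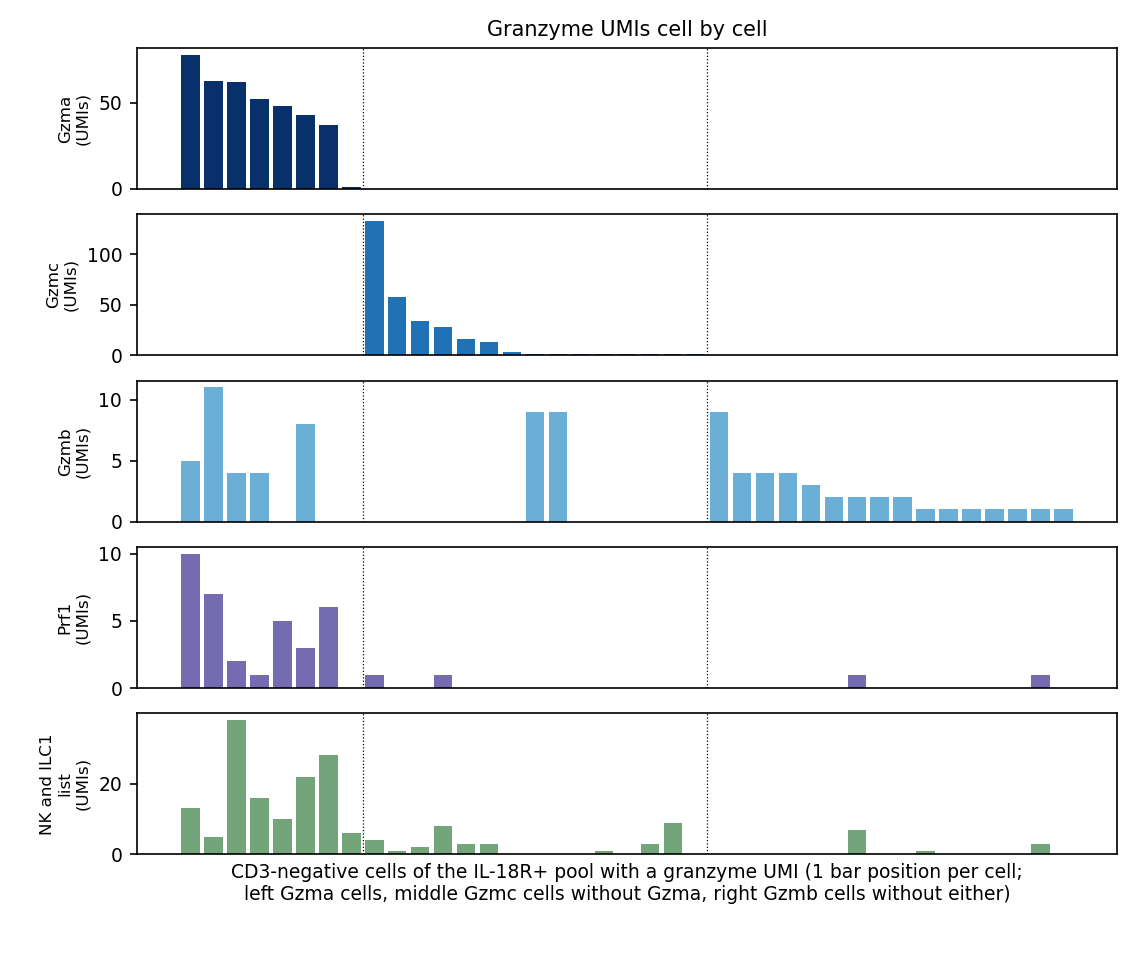
UMIs of Gzma, Gzmc, Gzmb, Prf1 and the NK and ILC1 marker list (rows) in each of the 39 CD3-negative cells of the pool with a granzyme UMI (columns; dotted lines part 8 Gzma cells, 15 Gzmc cells and 16 Gzmb cells). No cell holds both Gzma and Gzmc. At a Gzmc share of 5.81% in CD3-negative cells without Gzma, 8 Gzma cells are too few to show a separation. Gzmb is in 5 of the 8 Gzma cells, and in 6.98% of CD3-negative cells without Gzma.

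Gzmb was spread more widely than its neighbour Gzmc. In the pool, 116 of 206 UMIs (56.3%) were in 53 T cells, at 18.5 CPM (15.3 to 22.2), and 89 (43.2%) in 23 CD3-negative cells, at 45.3 CPM (36.4 to 55.8). The NK and ILC1 gate held 32 UMIs in 5 of 16 cells (31.3%, 11.02 to 58.7), all 5 of them Gzma cells. Among T cells of the pool, Gzmb was in 21 of 233 alpha beta T cells (9.01%, 5.67 to 13.4) and in 20 of 733 gamma delta T cells (2.73%, 1.67 to 4.18). At 2000 UMIs per cell these shares were 3.88% and 1.37%, at median depths of 5507 and 4689 UMIs before thinning. Within the type 17 gate, which took T cells with 2 UMIs of Il17a, Il17f and Il23r, the alpha beta share was 6 of 76 (7.89%, 2.95 to 16.4) and the gamma delta share 8 of 386 (2.07%, 0.899 to 4.04), with intervals that overlap. T cells of the negative-labelled library held 105 of its 117 Gzmb UMIs (89.7%), and the CD3-negative share was 9.40%, or 3.37% without the top 3 cells. The level there was 12.4 CPM in T cells (10.1 to 14.96) and 12.4 in CD3-negative cells (6.18 to 22.2), with intervals that overlap. Gzmb and Gzmc were found together in 6 cells of the pool, 7.79% of its Gzmb cells and 17.1% of its Gzmc cells. Of its cells without Gzmb, 1.84% had Gzmc. In the negative-labelled library 2 cells had both, 3.45% of its Gzmb cells, where 1.10% of the cells without Gzmb had Gzmc.

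Prf1 was split between T cells and the NK and ILC1 gate in the pool, and lay in T cells, mostly of the type 1 gate, in the negative-labelled library. In the pool, T cells held 52 of 99 UMIs (52.5%), of which gamma delta T cells held 39 in 35 of 733 cells (4.77%, 3.35 to 6.58), and 36 UMIs (36.4%) were in 8 of the 16 cells of the NK and ILC1 gate. The level was 413.5 CPM in that gate (289.6 to 572.4) and 8.31 in T cells (6.21 to 10.9). Of the 11 Gzma cells of the pool, 8 (72.7%) had Prf1, where 3.47% of the cells without Gzma had it. Those 8 were 12.3% of its 65 Prf1 cells. T cells of the negative-labelled library held 136 of its 140 Prf1 UMIs (97.1%), 95 of them (67.9% of all) in 73 of 508 type 1 T cells (14.4%, 11.4 to 17.7). Type 17 T cells had Prf1 in 12 of 474 (2.53%, 1.31 to 4.38). At 2000 UMIs per cell the 2 shares were 5.51% and 1.71%. T cells that met both gates are counted in neither share. The CD3-negative share of Prf1 UMIs in the pool was 46.5%, and 30.3% without the top 3 cells.

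Nkg7, which is needed for full release of cytotoxic granules, was the member found in most cells, and its holders differed between the libraries. In the pool, 911 of 1273 UMIs (71.6%) were in CD3-negative cells and 316 (24.8%) in T cells. In the negative-labelled library, 262 of 2289 UMIs (11.4%) were in CD3-negative cells and 2001 (87.4%) in T cells. The level was 464.1 CPM in CD3-negative cells (434.4 to 495.2) and 50.5 in T cells (45.1 to 56.4) of the pool, and 295.1 (260.4 to 333.0) and 235.5 (225.3 to 246.0) in the negative-labelled library, so the gap between the gates was narrower there. Per gate, Nkg7 was in 168 of 266 CD3-negative cells of the pool (63.2%, 57.0 to 69.0), in all 16 of its NK and ILC1 gate, and in 48 of 63 cells of its ILC progenitor gate (76.2%, 63.8 to 86.02). The CD3-negative cells without a granzyme held it too, in 136 of 227. Type 1 T cells of the negative-labelled library held 1657 UMIs (72.4% of its Nkg7) in 363 of 508 cells (71.5%, 67.3 to 75.3). Its type 17 T cells had Nkg7 in 22 of 474 (4.64%, 2.93 to 6.94), below the 2 of 27 B, myeloid and stromal cells, though with an interval of 0.910 to 24.3% those 27 cells cannot tell it from background. Thinned to 2000 UMIs the shares were 50.8% in type 1 and 2.77% in type 17 T cells, so the contrast stood at equal depth, from median depths of 6207 and 4616 UMIs. Type 1 T cells of the pool had Nkg7 in 27 of 67 (40.3%, 28.5 to 53.0). Split by receptor chain, Nkg7 was in 244 of 363 type 1 gamma delta T cells (67.2%, 62.1 to 72.03) and in 54 of 57 type 1 alpha beta T cells (94.7%, 85.4 to 98.9) of the negative-labelled library. Thinned, these were 50.96% and 52.6%, from median depths of 5917 and 7824 UMIs.

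**Figure D3:**
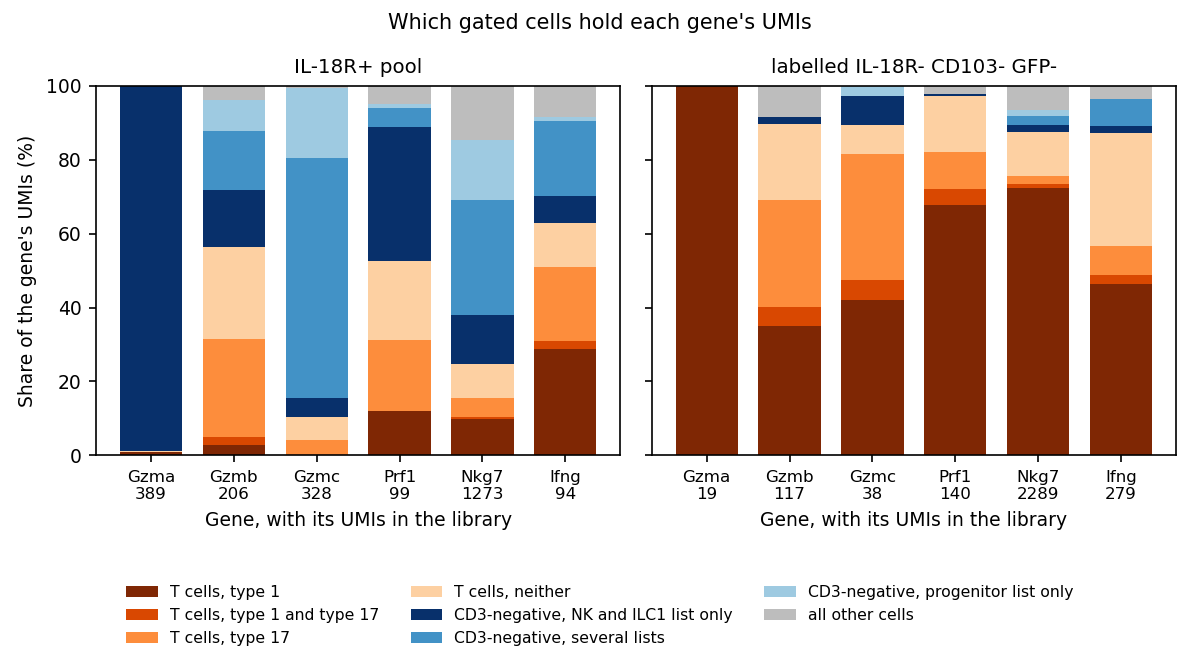
Share of each gene's UMIs (vertical axis, percent) held by gated cells of the pool (left) and the negative-labelled library (right). Genes are on the horizontal axis, with each gene's UMIs under its name. T cells are in orange shades. Blue marks CD3-negative cells of the NK and ILC1 gate, of the ILC progenitor gate and those that met several lists. Grey holds all other cells, the remaining CD3-negative cells included. Gzma and Gzmc are mostly blue in the pool (98.7% and 89.3% CD3-negative) and orange in the other library, where T cells hold 87.1% or more of each gene and 88.5% of all UMIs.

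**Figure D4:**
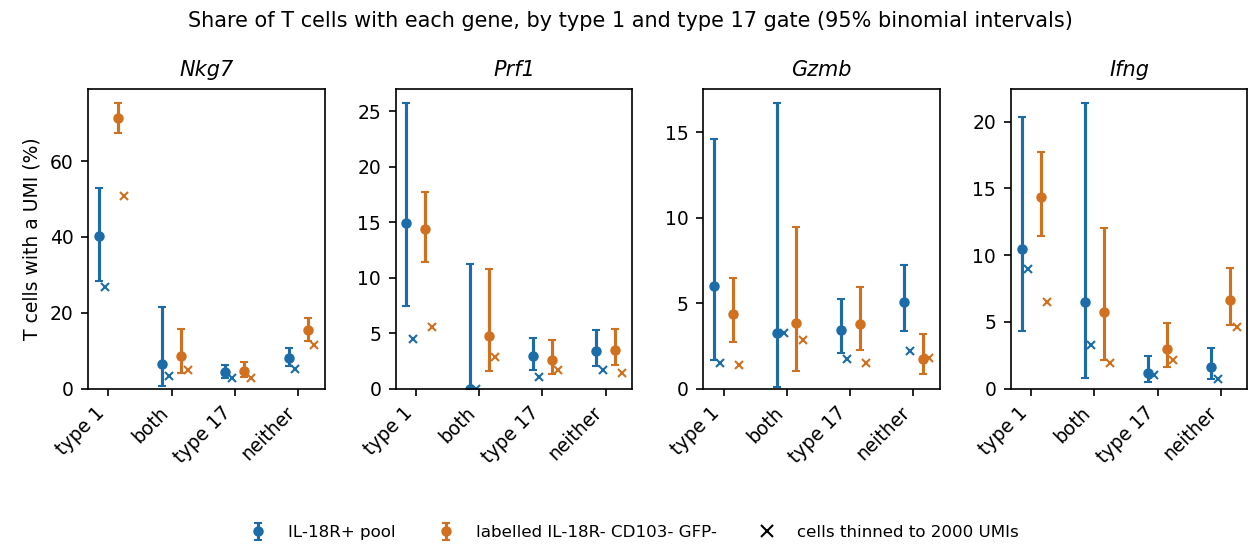
Share of T cells with a UMI of Nkg7, Prf1, Gzmb and Ifng (vertical axes, percent, each with its own scale) in T cells of the type 1 gate, of both gates, of the type 17 gate and of neither, in the pool (blue) and the negative-labelled library (orange); bars are 95% binomial intervals and crosses the share at 2000 UMIs per cell. Nkg7 and Prf1 are highest in type 1 T cells, while the 4 classes lie closer together for Gzmb.

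Most Ifng UMIs lay in T cells in both libraries, though the level per gate was not higher there than in CD3-negative cells. In the negative-labelled library, 243 of 279 UMIs (87.1%) were in T cells and 188 (67.4%) in gamma delta T cells. The level was 28.6 CPM in its T cells (25.1 to 32.4) and 38.3 in its CD3-negative cells (26.5 to 53.5), with intervals that overlap. Type 1 T cells held 129 UMIs (46.2%) in 73 of 508 cells (14.4%, 11.4 to 17.7). T cells of neither gate held 85 UMIs (30.5%) in 38 of 572 (6.64%, 4.74 to 9.01), and type 17 T cells held 22 UMIs (7.89%) in 14 of 474 cells (2.95%, 1.62 to 4.91). At 2000 UMIs per cell the 3 shares were 6.50%, 4.63% and 2.13%. The levels were 40.2 CPM (33.5 to 47.7) in type 1, 33.7 (26.95 to 41.7) in neither and 9.87 (6.19 to 14.95) in type 17 T cells. The intervals of type 1 and neither overlap, so their gap in shares is not one in level. Median depth was 6207 UMIs in type 1 T cells and 4343 in those of neither gate. Of the 27 B, myeloid and stromal cells 1 had Ifng (3.704%), which the type 17 share does not exceed. The interval of that 1 cell, 0.0937 to 19.0%, takes in the type 1 share as well, so the 27 cells do not tell any of these shares from background. The highest T cells of the type 1 gate and of neither gate held 13 UMIs each, and the highest type 17 T cell held 5. In the pool, 59 of 94 UMIs (62.8%) were in 25 of 1240 T cells (2.02%, 1.31 to 2.96), at 9.43 CPM (7.18 to 12.2), and 35 (37.2%) in 14 of 266 CD3-negative cells (5.26%, 2.91 to 8.67), at 17.8 CPM (12.4 to 24.8). Type 1 T cells of the pool held 27 UMIs (28.7%) in 7 of 67 cells (10.4%, 4.31 to 20.4), where they held 9.98% of its Nkg7 and 12.1% of its Prf1. The order was the other way in the negative-labelled library, with 46.2% of Ifng in type 1 T cells against 72.4% of Nkg7 and 67.9% of Prf1. The pool's side of this contrast rests on few cells, with 12 of those 27 Ifng UMIs in 1 cell. Counted by cells, type 1 T cells were 7 of the pool's 39 Ifng cells, 10 of its 65 Prf1 cells and 27 of its 278 Nkg7 cells. Of the 16 cells of the pool's NK and ILC1 gate, 4 had Ifng (25%, 7.27 to 52.4) with at most 3 UMIs each. In the negative-labelled library the count was 3 of 16 (18.75%, 4.047 to 45.65), also with at most 3 UMIs each. The highest CD3-negative cells held 13 UMIs in the pool and 17 in the negative-labelled library, and both met the NK and ILC1 list and the ILC progenitor list. All 9 Ifng UMIs of the ST2+ library were in 2 CD3-negative cells that met the ILC2 and ILC progenitor lists, 8 of them in 1 cell.

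Within type 1 gamma delta T cells of the negative-labelled library, the shares of some companion genes are given for cells with and without Ifng. Nkg7 was in 41 of 45 Ifng cells (91.1%, 78.8 to 97.5) and in 203 of 318 cells without Ifng (63.8%, 58.3 to 69.1). Serpinb6b, which encodes a protease inhibitor, was in 30 of 45 (66.7%, 51.05 to 80.0) against 120 of 318 (37.7%, 32.4 to 43.3). Tbx21, the type 1 master regulator T-bet and one of the genes of the gate, was in 17 of 45 (37.8%, 23.8 to 53.5) against 64 of 318 (20.1%, 15.9 to 24.96), with intervals that overlap. The type 17 gate held 13 Ifng cells among its gamma delta T cells, at a share not told from background above. There Nkg7 was in 1 of 13, where 17 of all 379 gamma delta T cells of that gate (4.49%) had it. Tnf, a cytokine gene, was in 10 of 13 (76.9%, 46.2 to 94.96) against 164 of 366 cells without Ifng (44.8%, 39.6 to 50.1), with intervals that overlap. The protease gene Ctsw was in 9 of 13 (69.2%, 38.6 to 90.9) against 99 of 366 (27.05%, 22.6 to 31.9). These companions, the member Nkg7 and genes of the pathway list, were picked after their values were seen, so the gaps describe these cells and test nothing. Median depth was 6808 UMIs in type 1 Ifng cells against 5782 in the others, and 4091 against 4538 in the type 17 gate. Type 1 gamma delta T cells with Nkg7 had a median of 6573 UMIs, against 4448 in those without it. The part of depth in these gaps was not tested.

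Ifng and granzymes occurred in the same cells only in part. In the pool, 39 cells had Ifng and 111 had Gzma, Gzmb or Gzmc, and 7 had both, which is 17.9% of the Ifng cells (7.54 to 33.5) and 6.31% of the granzyme cells (2.57 to 12.6). Of the cells without Ifng, 6.44% had a granzyme. Of those 7 cells, 6 were CD3-negative, which is 6 of 14 CD3-negative Ifng cells (42.9%, 17.7 to 71.1) where 33 of 252 CD3-negative cells without Ifng (13.1%, 9.19 to 17.9) had a granzyme, intervals that overlap. Of these 6, 4 were in the NK and ILC1 gate, all with Gzma, and the other 2 held Gzmc at 133 and 58 UMIs. Outside that gate, 2 of 10 CD3-negative Ifng cells (20%, 2.52 to 55.6) had a granzyme, against 27 of 240 without Ifng (11.3%, 7.55 to 15.9). In T cells of the pool 1 of 25 Ifng cells (4%, 0.101 to 20.4) had a granzyme, against 69 of 1215 others (5.68%). Thinned to 2000 UMIs, 4 of 9 CD3-negative Ifng cells had a granzyme, against 7.09% of the others.

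In the negative-labelled library, 145 cells had Ifng and 86 a granzyme, and 14 had both, which is 9.66% of the Ifng cells (5.38 to 15.7) and 16.3% of the granzyme cells (9.20 to 25.8). Of its cells without Ifng, 4.17% (3.28 to 5.22) had a granzyme. All 14 were T cells, and 11 were type 1: 11 of 73 type 1 Ifng cells (15.1%, 7.77 to 25.4) against 23 of 435 type 1 cells without Ifng (5.29%, 3.38 to 7.83), intervals that overlap at their edge. Gzmb, whose share in these T cells was not told from background, was in 9 of the 14, Gzma in 4 and Gzmc in 3. At 2000 UMIs per cell the overlap was 3 of 79 Ifng cells (3.80%) against 2.14% of the others, and in type 1 T cells 1 of 33 (3.03%) against 2.32%, so a difference was not detectable at this depth. With Prf1 counted as well, the share at full depth was 20% of Ifng cells (13.8 to 27.4) and 9.496% of cells without Ifng (8.15 to 10.98). These shares were not compared at equal depth. Median depth was 5413 UMIs in Ifng cells and 4741 in the others, and the part of depth was not tested. Of its 13 CD3-negative Ifng cells 0 had a granzyme, an interval that reaches 24.7%. In the ST2+ library 2 cells had Ifng, 1 had a granzyme and 0 had both.

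**Figure D5:**
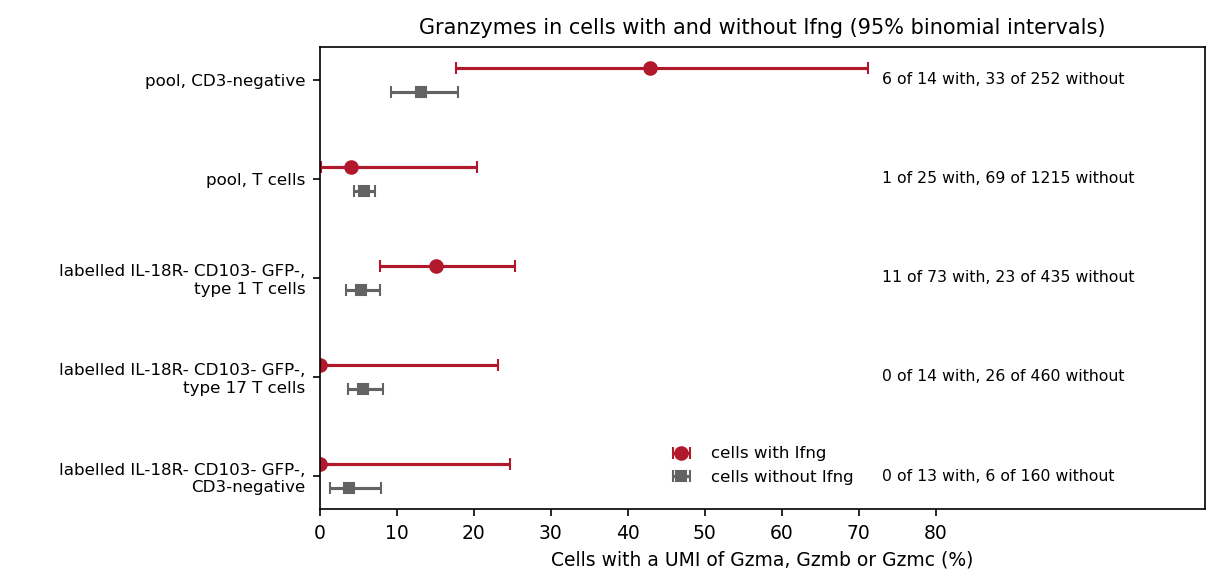
Share of cells with a UMI of Gzma, Gzmb or Gzmc (horizontal axis, percent) among cells with Ifng (red circles) and without it (grey squares), by library and gate, with 95% binomial intervals and the counts at right. The points are 42.9% and 13.1% in CD3-negative cells of the pool, with intervals that overlap, and 4% and 5.68% in its T cells.

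The wider pathway was described by 53 other genes in 8 groups. None of the other granzyme genes (Gzmd, Gzme, Gzmf, Gzmg, Gzmk, Gzmm and Gzmn) reached the minimum level. Gzmm came closest, with 12 UMIs in the pool, 116 (12.1 CPM, 9.99 to 14.5) in the negative-labelled library and 8 in the ST2+ library. Of the genes that share the cluster with Gzmc and Gzmb, Gzmd, Gzme, Gzmg and Gzmn had 0 UMIs in each of the 3 libraries and Gzmf had 1, in the pool. Between the pool and the negative-labelled library, 41 genes were measured, 0 were higher in the pool and 4 were higher in the other library, where the median log2 ratio was -0.13 against 0.10 over all measured genes. These 4 were the chemokine genes Ccl5 (9.41-fold, 9 to 9.83) and Xcl1 (2.60-fold, 2.23 to 3.03), the death ligand gene Fasl (3.66-fold, 2.84 to 4.78) and Tbx21 (2.14-fold, 1.69 to 2.73). They were higher in the same library as Ifng, while Gzma and Gzmc were higher in the other. The next by size were not called: Lyst (1.95-fold), Il21r (1.93-fold) and Ctsw (1.84-fold), higher in the negative-labelled library, and Ifngr2, higher in the pool (1.85-fold). With TMM or median-of-ratios scaling Ctsw, Lyst and Il21r were called as well, which makes 7. Of the 12 genes of granule biogenesis and release 0 were called under scaling to the library total, among them Srgn, whose product packs granzymes into granules and whose ratio of the pool to the negative-labelled library was 1.24 (1.21 to 1.27). Srgn was named after its values were seen.

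Against the ST2+ library, 39 pathway genes were measured for the pool, of which the pool was higher in 16 and the ST2+ library in 2, with a median log2 ratio of 0.88 against 0.30 over all genes. For the negative-labelled library these were 19 and 4 of 41, with medians of 0.84 and 0.19. Beside the sort gene Il18r1, Cst7, an inhibitor of granule cathepsins, was higher by 10.53-fold in the pool (7.59 to 15.01) and by 14.8-fold in the negative-labelled library (10.7 to 20.96). Xcl1 was 22.4-fold (11.6 to 49.6) and 58.1-fold higher (30.4 to 127.6). Fasl was 81.7-fold (27.7 to 398.3) and Tbx21 97.0-fold higher (26.6 to 805.8, from 2 UMIs in the ST2+ library; 64.7-fold with the floor) in the negative-labelled library. The chemokine gene Ccl4, with 1 UMI in the ST2+ library, was 188.3-fold higher there (33.5 to 7469; 62.8-fold with the floor). Ccl5 was 3.50-fold higher in the pool and 32.9-fold in the negative-labelled library, and the cytokine receptor gene Il21r 8.75-fold and 16.9-fold. In the pool Ctsw was 4.85-fold, the interferon gamma receptor gene Ifngr1 4.53-fold and Il2rb, a receptor chain for interleukins, 3.61-fold higher. Higher in the ST2+ library were the regulators Bhlhe40 (2.72-fold against the pool and 2.24-fold against the other library) and Prdm1 (2.45-fold and 2.16-fold). Under scaling to the library total, Zeb2 (2.44-fold) and Jak2 (2.37-fold) were called higher there against the negative-labelled library alone. All of these are named outside the rule of size, after their values were seen, because so few were called in that direction. Median-of-ratios scaling left 11 genes higher in the pool and 3 in the ST2+ library, Jak2 now among them as with TMM. It moved the median of all genes in that pair by -0.35 on the log2 scale.

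The genes most like each member were ranked by Pearson's r of log2 levels over 34 units, a unit being a gate with at least 20 cells in 1 library, among 9872 genes. Units of 1 library share its preparation and its depth, so these values describe and do not test. Nkg7 was most like Ms4a4b (r = 0.94), Cd7 (0.86) and Tcf7 (0.85). Prf1 was most like Rnf138 (0.82), Gzmm (0.80) and Gramd3 (0.79), and Ifng like Gimap4 (0.73), Klrc1 (0.72) and Ctsw (0.71). Gzmc was most like Tmsb15a (0.86), Bcas1 (0.84) and Tnni1 (0.81), and Gzmb like Tomm20 (0.79), Thap12 (0.73) and Hnrnpf (0.70). The Gzmc ranking rests largely on few cells. Of its 346 UMIs in these units, 213 were in the pool's CD3-negative cells that met several lists, 133 of them in 1 cell. For Gzma the ranking, led by Klra1 (0.92), Gzmm (0.88) and Nsg2 (0.80), rests on 24 of its 408 UMIs (5.88%), because the NK and ILC1 gate had too few cells to form a unit.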

How the data were processed

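Single-cell RNA libraries were made with the 10x Chromium 3' kit version 3.1, per the labels' protocols, 1 per group. The authors deposited raw counts of UMIs per gene and cell barcode; Cell Ranger 6.0.1 and build mm10 are named per the submitters' processing notes. Of 5351 barcodes, those with under 500 genes or over 10% mitochondrial UMIs (187) and 26 doublet calls by Scrublet (scanpy 1.11.5; 0.503%) were removed, leaving 5138 cells with 7891960 to 9598728 UMIs per library. Cells were gated by marker lists without the 6 genes. An item of the marker lists first planned is not reported here, and the gates were recomputed without it after the data had been seen. Levels are counts per 1000000 UMIs (CPM) with exact Poisson intervals, shares have exact Clopper-Pearson intervals, a count of 0 also has the limit of 3 counts of the total, and all cover counting error only. Groups of 1 library allow no test, so genes were called by the size rule given with the results. Cells were thinned to 2000 UMIs to compare shares, which left out 19, 19 and 14 shallower cells.

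The named pathway genes were the 8 measured with the largest log2 ratio per pair, with the floor, and the named alike genes the 3 with the highest correlation per member, on log2 of CPM plus 10. The 6 genes and all lists were chosen with earlier results of these data known. Scaling alternatives used TMM from edgeR 4.0.16 and median-of-ratios factors from DESeq2 1.42.0 in R 4.3.3, for factors only. The size rule was tested on simulated data. Alternatives covered cell filters, doublets, gates, scaling, the minimum level, depth and the 3 highest cells. Loci are from GENCODE M21 and promoters from RefSeq (GRCm38.p6).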

Additional observations from a re-analysis of the deposited data

How the results depend on the processing

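No paired analysis was possible because each group is 1 library and no replicate numbers are given. No called ratio changed direction, while that of Prf1 between the pool and the negative-labelled library, which was not called, crossed 1 with equal weight per cell. Of the level ratios under the alternatives, 125 moved by less than their counting interval and 13 by more, as did 216 and 24 shares of UMIs by gate. The shares of cells with a gene moved more, 24 beyond their interval and 12 within it, as did the counts of genes called, 16 of which moved by over 1.5 times and 8 by less. Ratios are given with the library named first over the other. The cause of each move was not tested unless the setting itself removes the cells or genes.

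With equal weight per cell, the pool over the negative-labelled library was 42.7 for Gzma and 1.08 for Prf1 (0.757 from sums). Nkg7 there was 0.541 with TMM and 0.537 with median-of-ratios scaling (0.595), and the pool over the ST2+ library was 91.4 for Gzma and 77.1 for Gzmc with median-of-ratios scaling. Those scalings moved the median of all genes by -0.14 and -0.16 (pool over negative-labelled), -0.31 and -0.35 (pool over ST2+) and -0.16 and -0.19 (negative-labelled over ST2+) on the log2 scale. Without the 3 cells with most of a gene, the pool over the negative-labelled library was 4.79 for Gzmc and 0.281 for Ifng (0.361), the pool over the ST2+ library 54.5 for Gzma and 30.2 for Gzmc, and the negative-labelled library over the ST2+ library 1.65 for Gzma, 6.30 for Gzmc and 64.6 for Ifng.

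Without those cells, the CD3-negative and T cell shares of UMIs were 66.0% and 33.0% for Gzmc and 30.3% and 68.4% for Prf1 in the pool, and 3.37% and 95.5% for Gzmb and 7.203% and 91.9% for Ifng in the negative-labelled library. With CD3 read from Cd3d and Cd3e only, an alternative chosen after seeing the data, they were 74.9% and 21.3% for Nkg7 in the pool and 13.2% and 85.5% in the negative-labelled library. With CD3 positive from 1 UMI the T cell share of Nkg7 in the pool was 27.7%. The share of Ifng cells with a granzyme in the negative-labelled library was 3.80% thinned, and 20% with Prf1 counted at full depth.

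Genes called moved with the minimum level. With none beyond the floor the pool had 1997 higher genes and the negative-labelled library 380, the pool 3148 and the ST2+ library 986, and the negative-labelled library 1865 and the ST2+ library 1494. At 50 CPM these were 46 and 20, 354 and 158, and 284 and 191, against 148 and 46, 732 and 257, and 549 and 310 at 20. Between the pool and the ST2+ library they were 476 and 388 with TMM and 450 and 412 with median-of-ratios scaling. Depth limits the shares of cells with a rare member: at 2000 UMIs the share in the pool was 0.917% for Gzmc (2.11% at full depth), 2.32% for Gzmb (4.65%), 1.71% for Prf1 (3.93%) and 1.59% for Ifng (2.36%), and 1 library per group leaves the spread between animals unknown.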
